A study of Mus musculus with 4 samples.

Results

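The epidermal protease inhibitor genes followed here in single basal cells of mouse dorsal skin were *Stfa1*, *Stfa3*, *Cst3* and *Cstb*, which belong to the cystatin superfamily of cysteine protease inhibitors, *Spink5*, *Slpi* and *Serpinb2*, which encode serine protease inhibitors, and *Serpinb5* (maspin), a serpin by sequence. They were picked by name, as 8 of the 24378 gene rows of each count table. The question was how the *Stfa* genes, taken as basal, and *Spink5*, taken as linked to differentiation, were spread over sorted populations, over cells with and without *Krt10*, and over libraries. Cells came from female Ivl-CreERT2/R26-tdTomato mice aged 57 days, given tamoxifen (10 µg per g, intraperitoneal) 2 days before isolation, as the labels give it, while the study's methods state another dose. All cells carried both alleles and had the treatment, so the groups differed in the sort and not in genotype or treatment. Live cells were gated as CD49f+/LY6A+/CD34-negative and split into traced (Tom+) and non-traced (Tom-) cells, where the involucrin promoter drives the inducible Cre, so Tom+ marks cells that had expressed *Ivl* or descend from such cells. There were 2 libraries per sort, each from 1 microfluidic chip of 96 wells, here called Tom+ 1, Tom+ 2, Tom- 1 and Tom- 2. The number stands for a tag in the titles, here called the run tag, whose meaning the labels do not give. Each chip held 1 sort only, so a difference between sorts also holds differences between chips. The design text names 2 mice but does not tie a library to a mouse, so p-values measure only the spread between libraries, which may be technical.

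Cystatins and stefins block papain-like cysteine proteases such as the cathepsins. The stefins (*Cstb* and the *Stfa* cluster) act inside cells, while cystatin C, the product of *Cst3*, is secreted. LEKTI, the product of *Spink5*, is made in the upper epidermis and holds back kallikreins, which cut the desmosomal links between corneocytes during shedding, and its loss causes Netherton syndrome in people. Clade B serpins such as *Serpinb2* (plasminogen activator inhibitor 2) are mostly intracellular. Maspin lacks the classical inhibitory action of a serpin.

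Wells with at least 2000 gene UMIs (unique molecular identifiers, each counting 1 molecule by its 5' end) were kept, 161 of 384 in all. Tom+ 1 gave 35 wells, Tom+ 2 gave 58, Tom- 1 gave 20 and Tom- 2 gave 48, with 81630 to 305407 UMIs per library. Of the genes of the gate, *Itga6* (CD49f) had UMIs in 78.3% of wells (65.7% in Tom+ 1) and *Ly6a* in 28%, and *Cd34* had no UMI. The basal keratins *Krt5*, *Krt15* and *Krt14*, which were not part of the gate, were in 100%, 100% and 90.1% of wells. *Krt14* was in 68.6% of wells of Tom+ 1, 96.6% of Tom+ 2, 95% of Tom- 1 and 95.8% of Tom- 2. Transcripts of the tdTomato reporter were counted in 16, 29, 0 and 3 wells of Tom+ 1, Tom+ 2, Tom- 1 and Tom- 2, so 3 wells of the library labelled Tom- 2 held some. No well name was shared between libraries. Each well was thinned once to 2000 UMIs, and wells with at least 6 thinned *Krt10* UMIs were called Krt10-high (68 wells) and the others Krt10-low (93 wells). This class is a range and not a cell type, and 20 wells lay within 4 to 7 UMIs. Only 6 of the 68 Krt10-high wells were Tom- (3 in each Tom- library), against 23 in Tom+ 1 and 39 in Tom+ 2.

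The inhibitors together took 3463 of 728896 UMIs, and their levels spread over a wide range. In the libraries pooled, *Cst3* had 1094 UMIs, *Serpinb2* 1079, *Serpinb5* 683, *Cstb* 395, *Spink5* 170, *Stfa3* 34, *Stfa1* 8 and *Slpi* 0. The first 4 of these therefore made up most of the signal, and the *Stfa* genes very little of it. A UMI counts a molecule whatever its length, so levels in UMIs per 1000000 gene UMIs (CPM) were compared between genes without scaling for length. In Tom- cells the order was *Serpinb2* (1841 ± 178 CPM, mean ± SD, n = 2), *Cst3* (1234 ± 186), *Serpinb5* (555 ± 64.3), *Cstb* (447 ± 42.6) and *Spink5* (59.8 ± 54). In Tom+ cells it was *Cst3* (1635 ± 43.4), *Serpinb2* (1197 ± 210), *Serpinb5* (1125 ± 188), *Cstb* (580 ± 46.3) and *Spink5* (319 ± 100). *Serpinb2* lay above *Serpinb5* within each of the 4 libraries, but among Tom+ libraries the ranges of these neighbours overlapped, so their order there was within the spread.

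**Figure D1:**
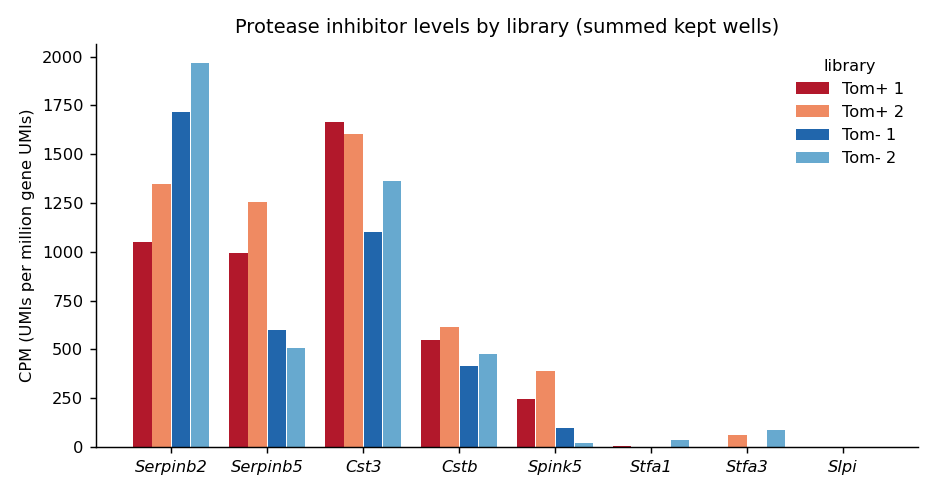
Level in CPM (vertical axis) of each inhibitor, 1 bar per library, from the summed kept wells. *Serpinb2* was higher in both Tom- libraries (1715 and 1967) than in both Tom+ libraries (1049 and 1346), *Serpinb5* and *Spink5* were higher in both Tom+ libraries, and *Slpi* had no UMI.

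*Spink5* was the inhibitor that changed with the sort and with *Krt10*. Its level was 248 CPM in Tom+ 1 (39 UMIs), 390 in Tom+ 2 (119 UMIs), 98 in Tom- 1 (8 UMIs) and 21.7 in Tom- 2 (4 UMIs). The sorts did not overlap, with the Tom+ libraries on top. The fit gave a log2 fold change of 2.70 (SE 0.52), or 6.52-fold higher in Tom+ (edgeR quasi-likelihood test, adjusted p = 0.00697). Of 6 inhibitors with enough counts to be tested, *Spink5* was the only one called higher and none was called lower, while 0.847% of the 3070 genes tested were called higher in Tom+ and 0.391% lower. A total of 34 of the 119 UMIs of Tom+ 2 came from a single well, without which that library stood at 288 CPM, still above the Tom- libraries. The call rested on the library Tom- 2 (4 UMIs), since without it the log2 fold change was 1.80 with an edgeR adjusted p of 0.113, and it was also lost when thinned counts were summed (2.78, adjusted p = 0.0974). A library sum cannot tell more cells with the transcript from more transcript per cell.

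The share of cells with a *Spink5* UMI was compared after thinning, which sets each cell to the same depth. It was 22.9% in Tom+ 1 (95% Clopper-Pearson interval 10.4 to 40.1), 43.1% in Tom+ 2 (30.2 to 56.8), 10% in Tom- 1 (1.23 to 31.7) and 2.08% in Tom- 2 (0.0527 to 11.1), where the intervals cover counting error only. The unthinned shares were 37.1%, 56.9%, 15% and 6.25%. The mean thinned share was 26.9 percentage points higher in Tom+, with no overlap between the sorts, and the exact two-sided permutation test gave p = 0.333 (0.778 after Benjamini-Hochberg adjustment over 7 inhibitors), where 0.333 is the smallest p that 2 against 2 libraries allow. The difference was 12.9 points between the libraries numbered 1 and 41 points between those numbered 2.

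Within libraries, *Spink5* was concentrated in Krt10-high wells. In Tom+ 1 it stood at 371 CPM in Krt10-high and 49.7 in Krt10-low wells, and in Tom+ 2 at 495 and 118. Of the 109 UMIs behind the 495 CPM, 34 came from a single well. In Tom- 1 the values were 297 and 46.3, from 5 and 3 UMIs, and in Tom- 2 they were 156 and 11.6, from 2 UMIs in each class. The level was thus higher in Krt10-high wells in all 4 libraries, although the Tom- values rested on 3 Krt10-high wells each. With library as a block the log2 fold change was 2.43 (SE 0.47), or 5.37-fold (edgeR quasi-likelihood test, adjusted p = 0.000587). Here *Spink5* was the only one of 5 tested inhibitors called, in a comparison in which 3.36% of the 1813 genes tested were called higher and 3.25% lower. The call was lost when thinned counts were summed (1.74, edgeR adjusted p = 0.0744) and when the cut-off was set at 1 *Krt10* UMI (0.94, adjusted p = 0.56). Unthinned and pooled over libraries, UMIs of *Spink5* were seen in 40 of 68 Krt10-high wells (58.8%) and in 12 of 93 Krt10-low wells (12.9%). After thinning, the pooled shares were 39.7% and 9.68%. By library the thinned shares were 26.1% against 16.7% in Tom+ 1, 51.3% against 26.3% in Tom+ 2 and 33.3% against 5.88% in Tom- 1. In Tom- 2 the direction was the other way, with 0% of 3 Krt10-high wells against 2.22% of 45 Krt10-low wells.

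Along finer steps of *Krt10*, *Spink5* in the Tom+ libraries rose from the step of 1 to 5 thinned *Krt10* UMIs upwards. In Tom+ 1 its level was 91.2 CPM in wells with 0 *Krt10* UMIs, 26 at 1 to 5, 227 at 6 to 20 and 622 above 20. In Tom+ 2 it was 343, 59.2, 477 and 616 over the same steps, the first of these from 6 UMIs in 3 wells. Of the 92 UMIs at 6 to 20 in Tom+ 2, 34 came from a single well. Both Tom+ libraries were lower at 1 to 5 *Krt10* UMIs than at either higher step. In the Tom- libraries all steps held 5 UMIs or fewer. Among Krt10-low wells *Spink5* had 3, 10, 3 and 2 UMIs in Tom+ 1, Tom+ 2, Tom- 1 and Tom- 2, too few for it to pass the filter on low counts. With no filter it was not called between sorts there (log2 fold change 1.76, SE 1.01, edgeR adjusted p = 0.934). The effect of the *Krt10* class on *Spink5* did not pass a test of difference between sorts (log2 difference -0.37, SE 1.00, edgeR adjusted p = 0.986).

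**Figure D2:**
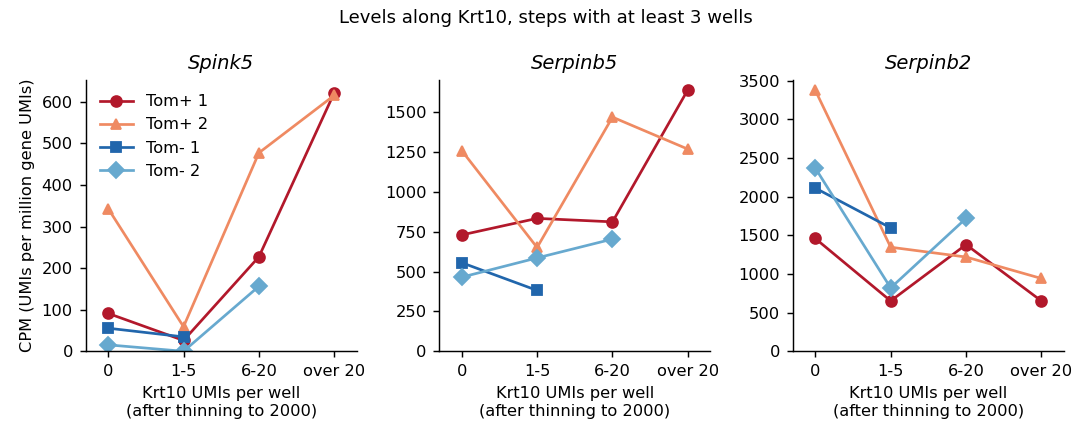
Levels of *Spink5*, *Serpinb5* and *Serpinb2* in CPM (vertical axes, each from 0) over 4 steps of *Krt10* UMIs per thinned well (horizontal axes), 1 line per library, with steps under 3 wells left out. *Spink5* reached 622 and 616 in the top step of the Tom+ libraries, while *Serpinb2* was highest at 0 *Krt10* UMIs in all 4 libraries. For *Serpinb2* the Tom+ 2 value at 0 came from 3 wells, with 47 of 59 UMIs in 1 well. In Tom+ 1 its values at 0 and at 6 to 20 were close (1459 and 1380).

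The *Stfa* genes lie in a cluster on chromosome 16 (GRCm38.p6, RefSeq), *Stfa1* at chr16:36277148-36285371 and *Stfa3* at chr16:36450537-36455392, 165 kb apart. The copies are alike in sequence before the start and less so in the transcript. How reads shared between copies were counted is not given in the sources used here, so the split between *Stfa1* and *Stfa3* is uncertain. RefSeq also lists *Stfa3* as a synonym of *Stfa1*, and rows were matched by their symbol alone. The 250 bases before the start of *Stfa1* and *Stfa3* were 83.5% identical when aligned, the first 50 transcribed bases 62.3% and the GENCODE transcripts 65.4%. Transcripts of *Stfa2*, another copy, were 50.2% identical to those of *Stfa1* and 60.6% to those of *Stfa3*. Transcripts of *Stfa1* and *Cstb*, which lies outside the cluster, were 52% identical, which is above the value for *Stfa1* and *Stfa2*. The last 120 bases before each RefSeq start are shown for the cluster because the *Stfa* copies share them, with the letters TTTAAA in capitals.
Stfa1 (chr16:36277028-36277147, plus strand): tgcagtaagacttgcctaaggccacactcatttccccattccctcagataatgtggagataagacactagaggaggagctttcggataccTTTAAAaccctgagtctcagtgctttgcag
Stfa2 (chr16:36408364-36408483, minus strand): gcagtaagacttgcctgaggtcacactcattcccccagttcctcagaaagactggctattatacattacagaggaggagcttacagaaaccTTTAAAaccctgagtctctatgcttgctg
Stfa3 (chr16:36455393-36455512, minus strand): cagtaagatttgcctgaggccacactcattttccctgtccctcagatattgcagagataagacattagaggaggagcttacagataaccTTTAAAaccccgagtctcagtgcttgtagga

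In all 3 windows TTTAAA, which reads the same on both strands, began 29 to 31 bases before the start, and 5.2% of 32851 promoter windows of 120 bases in the RefSeq table held these letters. A match is a description of the sequence and not a shown binding site. *Stfa2* had no UMI in any kept well, so of the 3 copies shown only *Stfa3* and *Stfa1* had counts.

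*Stfa* UMIs were rare and sat in few wells. *Stfa3* had 0 UMIs in Tom+ 1, 18 in Tom+ 2, 0 in Tom- 1 and 16 in Tom- 2. *Stfa1* had 1, 0, 0 and 7 UMIs in the same order. The sorts overlapped for both genes, and *Stfa3* was at 0 in both libraries numbered 1. There, 0 of 35 and 0 of 20 wells leave room, by the limit of 3 counts, for shares of wells with a UMI of up to 8.57% and 15%. Only 9 of 161 wells held a *Stfa* UMI, 7 with *Stfa3* and 3 with *Stfa1*. A single Tom- 2 well, with no *Krt10* UMI, held all 16 *Stfa3* UMIs and 6 of the 7 *Stfa1* UMIs of that library. Another well, in Tom+ 2, held 10 of the 18 *Stfa3* UMIs there. *Stfa3* passed the filter on low counts for the sort comparison but was not called (log2 fold change -0.66, SE 1.01, edgeR adjusted p = 0.956), and *Stfa1* was not tested.

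The level of the *Stfa* genes on either side of the *Krt10* cut-off depended on that 1 well. Krt10-low wells held 29 of 42 *Stfa* UMIs (75.9 CPM) and Krt10-high wells 13 (37.5 CPM). Without the top well, the Krt10-low wells held 7 UMIs (18.5 CPM), which is below the Krt10-high level. By wells, 5 of 93 Krt10-low (5.38%) and 4 of 68 Krt10-high wells (5.88%) held a *Stfa* UMI. After thinning, 3 of 93 (3.23%) and 2 of 68 wells (2.94%) did. A difference in the share of *Stfa* cells across the cut-off was not detectable at this depth. By *Krt14*, a basal keratin, the 9 *Stfa* wells held 0 to 70 thinned UMIs with a median of 37, and the other 152 wells 0 to 116 with a median of 18. Wells with *Stfa* were deeper, with a median of 5077 UMIs against 3806, and the part of depth in this was not tested. Since *Stfa* genes are also made by neutrophils, that list was read in the same wells. Of its 11 genes in the tables only *S100a9* (1 UMI) and *Itgam* (3 UMIs) were seen, the summed level was 3.27 to 6.36 CPM in the Tom+ and 0 to 10.8 CPM in the Tom- libraries, and *S100a8*, *Ngp*, *Camp*, *Ltf*, *Elane*, *Mpo* and *Lcn2* were at 0. The 9 *Stfa* wells held no *S100a8* or *Itgam* UMI. This carries little weight, since *S100a8* was at 0 in every kept well and *Itgam* was seen in only 2. *S100a9* was not read in the *Stfa* wells, and the part of neutrophils in the *Stfa* counts was not tested.

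Set against *Spink5*, the *Stfa* genes took 2.5% of the *Stfa* and *Spink5* UMIs in Tom+ 1 (1 of 40, interval 0.0633 to 13.2), 13.1% in Tom+ 2 (18 of 137, 7.98 to 20), 0% in Tom- 1 (0 of 8, 0 to 36.9) and 85.2% in Tom- 2 (23 of 27, 66.3 to 95.8). Tom- 2 stood apart and the other Tom- library lay below both Tom+ libraries. The mean share was 34.8 percentage points lower in Tom+ (7.82% against 42.6%), and the exact two-sided permutation test gave p = 1. Without Tom- 2 the difference reversed to 7.82 points, and without the 2 wells with most *Stfa* UMIs it was -5.50 points. By wells, 48 held *Spink5* alone, 5 *Stfa* alone, 4 both and 104 neither. Of the 9 *Stfa* wells, 4 thus held *Spink5* too, among them the Tom+ 2 well with 10 *Stfa3* UMIs, which had 4 of *Spink5*.

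**Figure D3:**
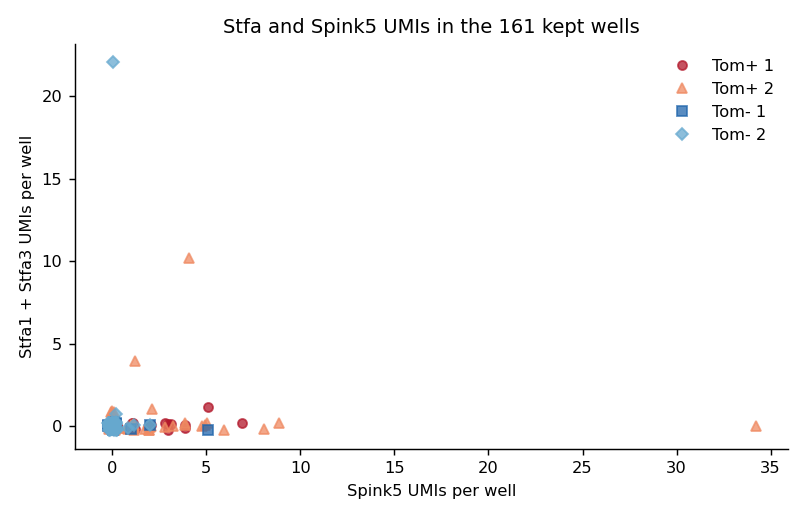
*Stfa1* and *Stfa3* UMIs together (vertical axis) against *Spink5* UMIs (horizontal axis) in each of the 161 kept wells, coloured by library, with points shifted by up to 0.25 UMI so that they do not hide each other. Most wells lie at 0 *Stfa* UMIs, and 1 Tom- 2 well with 22 *Stfa* and 0 *Spink5* UMIs stands apart.

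The other cystatins were broadly present and did not pass the test. *Cst3* stood at 1666 CPM in Tom+ 1, 1604 in Tom+ 2, 1103 in Tom- 1 and 1365 in Tom- 2, and had UMIs in 158 of 161 wells. *Cstb*, a stefin, was at 547, 612, 417 and 477 CPM and in 118 wells. For both genes the Tom+ libraries lay above the Tom- libraries. The fitted log2 fold changes were 0.35 (SE 0.25, edgeR adjusted p = 0.769) for *Cst3* and 0.32 (SE 0.30, adjusted p = 0.872) for *Cstb*. Libraries of the sorts did not overlap for 5 of the 6 tested inhibitors (4 higher in Tom+, *Serpinb2* lower), and of all genes tested 20.8% were higher and 18% lower in this way, 38.9% together. Between *Krt10* classes *Cst3* gave 0.08 (SE 0.23) and *Cstb* 0.21 (SE 0.31), with edgeR adjusted p of 0.909 and 0.83. Over *Krt10* steps *Cst3* had no common direction in the 4 libraries. In Tom+ 1 it stood at 1550, 2006, 1656 and 1386 CPM from the lowest to the highest step, and in Tom- 2 at 1193, 1476 and 2737 over its 3 steps, the last from 35 UMIs in 3 wells.

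The serpins *Serpinb5* (chr1:106861175-106883348) and *Serpinb2* (chr1:107500892-107525600) belong to 1 cluster on chromosome 1, 618 kb apart, and their values went in opposite directions. *Serpinb5* was at 992 CPM in Tom+ 1, 1257 in Tom+ 2, 600.3 in Tom- 1 and 509 in Tom- 2. *Serpinb2* was at 1049, 1346, 1715 and 1967 CPM in the same order. Neither gene overlapped between the sorts. *Serpinb5* gave a log2 fold change of 1.00 (SE 0.28, edgeR adjusted p = 0.0972), a 2-fold higher level in Tom+, and *Serpinb2* gave -0.66 (SE 0.26, adjusted p = 0.331), so neither passed the threshold of 0.05. The share of cells with a *Serpinb2* UMI went the other way from its level at the main setting. After thinning it was 62.9% and 63.8% in the Tom+ and 55% and 60.4% in the Tom- libraries, a difference of 5.62 points. Without thinning it was 80% and 81% against 60% and 62.5%, a difference of 19.3 points. The sign depended on the setting, with 1.79 points when at least 2 UMIs were asked for and -12.2 points with a minimum of 5000 UMIs. The share of cells with a *Serpinb5* UMI was 18.7 points higher in Tom+ after thinning. For the thinned shares of both genes the exact permutation test gave p = 0.333, the smallest possible. In the edgeR fits of level, both genes passed once the run tag was a replicate block. *Serpinb5* then gave 1.01 (adjusted p = 0.00144) and *Serpinb2* -0.66 (adjusted p = 0.0262), though the tags were not shown to pair the libraries. Between *Krt10* classes *Serpinb5* gave 0.62 (SE 0.27, edgeR adjusted p = 0.206) and *Serpinb2* -0.48 (SE 0.24, adjusted p = 0.311). *Serpinb5* passed with limma-voom (0.65, adjusted p = 0.0399), and *Serpinb2* passed with the cut-off at 1 *Krt10* UMI (-0.93, edgeR adjusted p = 0.00808).

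The proximal promoters of *Serpinb2* and *Serpinb5* are shown as a description of sequence. They are not alike, with 50.3% identity over the 250 bases before the start. The part of promoter sequence in the opposite signs was not tested. Capitals mark TATAAA and TGANTCA (the letters of an AP-1 site) in *Serpinb2*, and GGGCGG (the letters of a GC box) in *Serpinb5*.
Serpinb2 (chr1:107511303-107511422, plus strand, before 1 of 2 listed starts, both inside the annotated gene span): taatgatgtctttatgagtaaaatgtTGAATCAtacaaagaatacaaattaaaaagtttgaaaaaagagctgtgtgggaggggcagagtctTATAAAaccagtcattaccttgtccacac
Serpinb5 (chr1:106861055-106861174, plus strand): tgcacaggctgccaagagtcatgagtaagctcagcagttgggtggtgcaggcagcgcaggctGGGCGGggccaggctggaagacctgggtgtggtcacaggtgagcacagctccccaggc

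TATAAA began 29 bases and TGANTCA 94 bases before the *Serpinb2* start, and GGGCGG 58 bases before that of *Serpinb5*. Searched on both strands, TATAAA was in 6.34%, TGANTCA in 3.41% and GGGCGG in 26.5% of all promoter windows of the same length. CCAAT (21.3% of windows) had no match in these windows or in those of the *Stfa* genes.

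Among Krt10-low wells the same directions were seen between sorts, without a call. *Serpinb5* was at 796 and 776 CPM in Tom+ 1 and Tom+ 2, and at 478 and 495 in Tom- 1 and Tom- 2. *Serpinb2* was at 945 and 1763 against 1882 and 1985. The libraries of the sorts did not overlap for either gene, but the share of all genes without overlap was not computed for Krt10-low wells. For *Serpinb2*, 47 of the 150 UMIs of Tom+ 2 came from a single well. The log2 fold changes were 0.64 (SE 0.35, edgeR adjusted p = 0.762) and -0.54 (SE 0.26, adjusted p = 0.74), and *Cst3* and *Cstb* gave 0.39 (SE 0.27) and 0.30 (SE 0.39). None of the 4 inhibitors tested there was called by edgeR, with an unadjusted p of 0.0435 for *Serpinb2* as the only one under 0.05, and no other tool called one. In that comparison 0.245% of 1224 genes were called higher and 0.163% lower. *Krt10* itself still differed there (log2 fold change 1.72, SE 0.34, edgeR adjusted p = 0.000689).

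**Figure D4:**
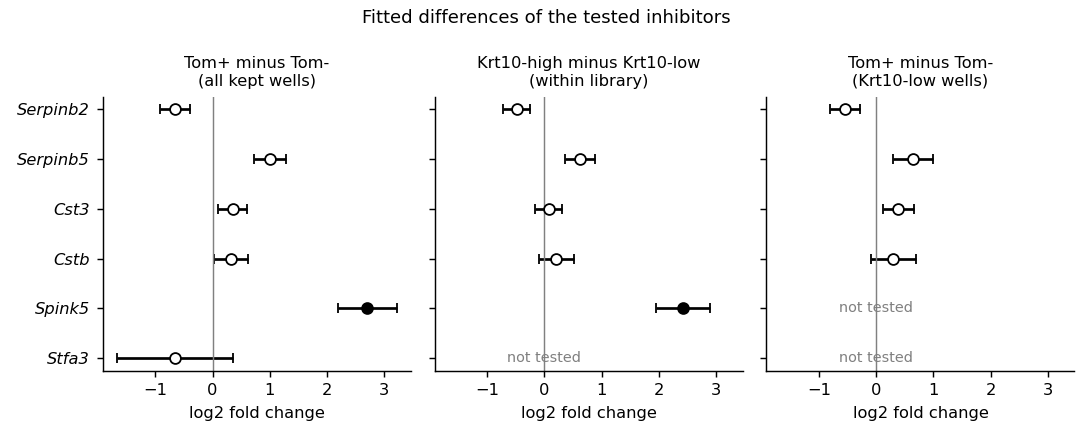
Log2 fold changes (points) from edgeR for the tested inhibitors in 3 comparisons, filled where the adjusted p was under 0.05. Bars are standard errors derived from the F statistic. *Spink5* is the only filled point, at 2.70 between sorts and 2.43 between *Krt10* classes.

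*Serpinb2* was the most uneven inhibitor from cell to cell in each of the 4 libraries. It reached 28, 47, 44 and 49 UMIs in the top well of Tom+ 1, Tom+ 2, Tom- 1 and Tom- 2, yet had none in 44 of 161 wells. After thinning, its variance over wells was 3.75, 5.91, 11 and 14.5 times its mean. Those ratios exceeded the ratio of 91.8% to 99.3% of the 427 genes with at least 100 thinned UMIs, whose median ratio was 1.45 to 1.57. *Cst3*, at a like level, had ratios of 1.60, 1.12, 1.40 and 1.42. In Tom- 2 the thinned mean of *Serpinb2* was 4.29 UMIs per well and 60.4% of wells had a UMI, where Poisson counts of that mean would give 98.6%. *Serpinb5* had ratios of 3.28, 1.67, 1.95 and 1.11, and *Cstb* 1.31, 1.63, 1.89 and 4.12.

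**Figure D5:**
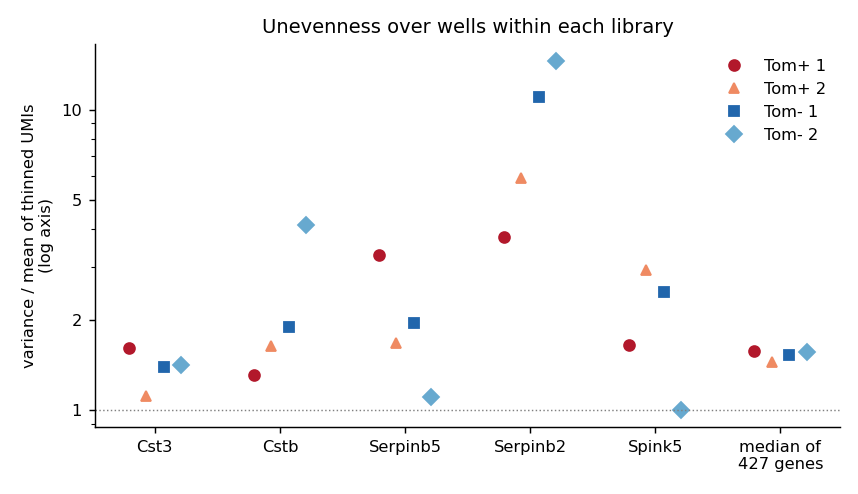
Variance divided by mean of thinned UMIs over wells (vertical axis, log scale, 1 point per library) for 5 inhibitors and the median over 427 genes, with the Poisson value of 1 dotted. *Serpinb2* lies at 3.75 to 14.5 and the median gene at 1.45 to 1.57.

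The genes whose counts ran most like each inhibitor over wells were ranked by Pearson r of ln(thinned UMI + 1), centred within library, over 161 wells. This is a description, since cells of a library share depth and chip. *Serpinb2* ran most like *Ifrd1* (r = 0.51), *Cldn1* (0.47), which encodes a tight junction protein, and *Thbs1* (0.41), which encodes thrombospondin 1, and each r was positive in all 4 libraries. In Tom- 1, *Ifrd1* averaged 2.18 thinned UMIs in the 11 wells with *Serpinb2* and 0 in the 9 wells without, and in Tom- 2 it averaged 2.07 and 0.737. *Thbs1* was called lower in Tom+ (log2 fold change -1.88, edgeR adjusted p = 0.00375) and in Krt10-high wells (-2.47, adjusted p = 7.33e-05), which *Serpinb2* was not. *Ifrd1* was called lower in Tom+ among Krt10-low wells (-1.65, edgeR adjusted p = 0.0401).

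*Spink5* ran most like *Sbsn* (suprabasin, r = 0.37), *Ly6g6c* (0.34) and *Gm94* (0.32), with values near 0 in Tom- 2, where it had 1 thinned UMI. *Serpinb5* ran most like *Dbi* (0.34), *Dmkn* (dermokine, 0.31) and *Calm5* (0.30). *Cstb* ran with *Rpl24* (0.29), *Atpif1* (0.27) and *Rps3a1* (0.26), and *Cst3* with *Anxa8* (0.24), *Fam25c* (0.23) and *Itm2b* (0.23), all weak. For *Stfa3* the top gene was *Pdia3* (r = 0.33), which fell to 0.19 without the well with most *Stfa3* UMIs, and for *Stfa1* it was *Pdia3* too (0.29, then 0.04 without its top well), so that likeness rested on a single well. Between the inhibitors themselves r was 0.84 for *Stfa1* and *Stfa3*, which rested on the 1 well with thinned UMIs of both, and lay between -0.14 (*Cst3* and *Serpinb2*) and 0.13 (*Serpinb2* and *Serpinb5*) for the other pairs, weak values in sparse counts.

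*Slpi*, an inhibitor of neutrophil elastase, had 0 UMIs in all 161 wells, which leaves room for up to 1.86% of wells with a UMI and 4.12 CPM by the limit of 3 counts, and says less of cells that make the transcript. In the 54 wells that had gene UMIs but under 2000 it was at 0 as well, and so were *Stfa1* and *Stfa3*.

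The other inhibitors and the proteases they act on were read from lists of related genes. Of the other cysteine protease inhibitors 1 was tested and none was called: *Cst6* had 17, 48, 0 and 7 UMIs in Tom+ 1, Tom+ 2, Tom- 1 and Tom- 2, and gave a log2 fold change of 2.35 (SE 0.66, edgeR adjusted p = 0.101) between sorts and 1.82 (SE 0.75, adjusted p = 0.177) between classes. The product of *Cst6*, cystatin M/E, limits legumain and cathepsins in the upper epidermis. Of 6 tested other serine protease inhibitors none was called between sorts (median log2 fold change -0.37, against -0.01 over all genes tested), where *Spint2* had the most UMIs (167). Between *Krt10* classes 2 of 4 were called lower: *Serpinb10* fell by 2.64 on the log2 scale (SE 0.73, edgeR adjusted p = 0.0215) and *Serpinh1* fell by 2.33 (SE 0.65, adjusted p = 0.0222). *Serpinh1* encodes a collagen chaperone and not a protease inhibitor. *Timp3* (41 UMIs) was the only metalloprotease inhibitor of 5 listed with a UMI, and it was not called (log2 fold change -1.18, SE 0.65, edgeR adjusted p = 0.61).

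Of the serine proteases, 5 of 25 were tested between sorts and none was called, and between classes 1 of 3 rose. This was *Tmprss4*, a membrane-bound serine protease (log2 fold change 2.14, SE 0.63, edgeR adjusted p = 0.0304), with 25, 70, 5 and 13 UMIs in Tom+ 1, Tom+ 2, Tom- 1 and Tom- 2. Of the kallikreins that LEKTI is known to hold back, *Klk5* had 2 UMIs, *Klk7* 4 and *Klk14* 0, against 170 for *Spink5* itself. Of a list of cathepsins, calpains and a caspase, which holds targets of cystatins such as *Ctsb* and *Ctsl* but also proteases of other classes such as *Ctsd*, 7 were tested between sorts with no call, and 1 of 4 was called between classes: *Ctsb* fell by 1.01 (SE 0.31, edgeR adjusted p = 0.0437), while *Cst3* and *Cstb* did not pass. Among desmosomal and other substrates of the kallikrein cascade, 2 of 3 rose with the class, *Dsg1a* by 1.38 (SE 0.26, edgeR adjusted p = 0.0005) and *Dsp* by 1.09 (SE 0.22, adjusted p = 0.001), and none of 4 was called between sorts. Of a list of cornified envelope and late differentiation genes 3 were tested, *Krtdap*, *Sbsn* and *Dmkn*, which encode secreted proteins of differentiating keratinocytes, and all 3 rose with both the sort (2.95, 2.77 and 1.28) and the class (4.83, 3.19 and 1.34), as *Spink5* did. In the reference genes *Krt10* was 4.68-fold higher in Tom+ (edgeR adjusted p = 0.000174), and *Krt14* gave -0.81 between sorts (adjusted p = 0.0972) and fell by 3.45 between classes.

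Markers of immune cells that a CD49f gate could let in were sparse, while members of the infundibular list ranged from rare to widespread. Langerhans genes summed to 44.5 and 88.4 CPM in the Tom+ and 110 and 10.8 CPM in the Tom- libraries, with *Cd207* at 2 UMIs in all, and T-cell genes to 12.7 and 229 against 0 and 190 CPM. The T-cell genes were thus higher in both libraries numbered 2, which are also those with *Stfa3* UMIs, and the part of these cells in the *Stfa3* counts was not tested. Infundibular genes, which a sort for interfollicular cells can include, summed to 585 and 2043 against 1372 and 1268 CPM. At least 3 infundibular markers were seen in 40 of 161 wells. The list was uneven, with *Krt17* in 101 wells (560 UMIs) and *Krt6a* in 80, *Postn* in 34 and *Cst6* in 32. *Sox9* was in 14 wells, *Fst* in 13, *Krt79* in 7 and *Defb6* in 6. The sum and the count of 40 wells therefore do not by themselves mark infundibular cells. Without the 44 wells that had 3 or more markers of any such list (2, 23, 8 and 11 in Tom+ 1, Tom+ 2, Tom- 1 and Tom- 2), *Spink5* kept its calls between sorts and between classes.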

How the data were processed

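The deposited tables, 1 per C1 chip, hold raw UMI counts from 5' STRT libraries for each well, which the authors did not normalize. The submitters' processing notes name mm10 and GRCm38. The aligner and annotation are not given in the sources used here. The members and gene lists were chosen with earlier results of these data known.

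Wells with at least 2000 gene UMIs were kept and no doublet caller was run. Wells were thinned once to 2000 UMIs (seed 1) for shares, *Krt10* classes and likeness. Full counts were summed per library, or per library and class, and tested over all genes by the quasi-likelihood test of edgeR 4.0.16 under R 4.3.3. Scaling was TMM, low rows were removed with filterByExpr, and p was adjusted after Benjamini-Hochberg and read at 0.05, after the procedure was tested on simulated data. The SE given with edgeR was derived as the absolute log2 fold change over the square root of the F statistic. Shares have 95% Clopper-Pearson intervals, and a count of 0 allows 3 counts. *Krt10* was left out of the class fit, which it defines. From each list, genes past the threshold were named (at most 6), or else the gene with most UMIs. Likeness was ranked for named inhibitors, with 3 genes each. The likeness of *Cst3*, *Serpinb2* and *Serpinb5*, the promoter motifs, the kallikreins named, the *Krt14* levels of *Stfa* wells and the unevenness over wells were added once the data had been seen. The planned log2 ratio of *Stfa* to *Spink5* has no value in a library without *Stfa* UMIs, so the share of UMIs was used. Alternatives were DESeq2 1.42.0 (size factors and Wald test), limma-voom 3.58.1, no filter on low counts, minimums of 1000 and 5000 UMIs, other *Krt10* cut-offs (1 and 11), other seeds, thinned sums, wells or libraries left out, and the run tag as a block. Sequences and positions are from RefSeq (GRCm38.p6), where 6 of the 8 inhibitors had a promoter entry, and from GENCODE vM21 transcripts. Depth was 81630 to 305407 UMIs per library, which limits genes such as *Stfa1*, and intervals cover counting error only.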

Additional observations from a re-analysis of the deposited data

How the results depend on the processing

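The number of inhibitors called between sorts was 1, and 0 with thinned counts in the sums, 3 with the run tag as replicate block, and 0 to 1 with a library left out. Between *Krt10* classes it was 1, and 2 with limma-voom, 0 with thinned counts and 1 with any library left out. Among Krt10-low wells it was 0 in every fit run. *Spink5* between sorts gave log2 fold changes of 2.30 to 3.65 over the other fits and 1.80 to 3.78 with a library left out, and the call was lost with thinned counts (2.78) and without Tom- 2. Between classes it gave 2.35 to 2.84 with a library left out, and the call was lost with thinned counts (1.74) and a cut-off of 1 (0.94). The share of cells with *Spink5* differed by 10.8 points when at least 2 UMIs were asked for, and by 16.8 to 37.1 points with a library left out. The *Stfa* share of *Stfa* and *Spink5* UMIs differed by -77.4 to 7.82 points with a library left out, and the added setting without the 2 wells with most *Stfa* UMIs was chosen after seeing the data, as was the interaction of class and sort.

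Values without a call changed sign in these settings. *Cstb* gave -0.017 between sorts with thinned counts, -0.0070 and -0.62 between classes with a minimum of 5000 UMIs and a cut-off of 11, and -0.015 to 0.80 among Krt10-low wells with a library left out, below 0 without Tom- 1. *Cst3* gave -0.012, -0.0091 and -0.025 between classes with no filter, with Tom+ libraries alone and with a cut-off of 11, and -0.053 to 0.28 with a library left out, below 0 without Tom- 2. *Stfa3* gave -5.88 to 0.14 between sorts with a library left out, above 0 without Tom+ 1, and *Serpinb2* gave 0.034 among Krt10-low wells with a cut-off of 1. The share of cells with a *Serpinb2* UMI differed by 5.62 points between sorts, and by -12.2 points with a minimum of 5000 UMIs. The causes were not tested.

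The labels do not say what a run tag marks, and the deviations of libraries with the same tag correlated at r = 0.13 over 3070 genes, from only 2 pairs, so the tags were not shown to pair the libraries. The replicate block moved the calls over all genes from 26 higher and 12 lower to 63 and 53 between sorts, and from 3 and 2 to 4 and 4 among Krt10-low wells. Without a replicate block between classes *Spink5* kept its call. Counts over all genes also moved by over 1.5 times in other fits. Between sorts 9 genes, 8 higher and 1 lower, were called with a minimum of 5000 UMIs, 15 and 2 with thinned counts, 17 and 7 without wells holding 3 markers of another cell type, and 40 and 26 without Tom- 1.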
